A study of Cunninghamia lanceolata with 3 samples.

Results

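The comparison of active with dormant vascular cambium of Cunninghamia lanceolata (Chinese fir, a conifer) sets growing against resting stem tissue. It covers 36288 of the 53590 unigenes (assembled transcript sequences) of the series, namely those with at least 20 reads in the active and dormant libraries together. A unigene missing from a library's table was taken as 0 reads there. Between these 2 libraries, 6560 unigenes (18.1%) had an RPKM (reads per kilobase of unigene, scaled to the library's mapped reads) at least 2-fold higher in active cambium, and 5005 (13.8%) were at least 2-fold lower. Unigenes named as cellulose synthases, laccases, kinesins, pectin enzymes, and xyloglucan endotransglucosylases and endoglucanases were mostly higher in active cambium. Those for dehydrins and late embryogenesis abundant (LEA) proteins and for sucrose metabolism were mostly lower, and of those for raffinose, starch and trehalose metabolism 40.9% were lower and 0 higher.

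The vascular cambium is a sheet of dividing cells that gives xylem, the wood, to its inner side and phloem to its outer side. In trees of seasonal climates it stops dividing for the cold season, and its cells then hold stored carbohydrate, thick walls and proteins linked to freezing tolerance. In the growing season its derivatives enlarge through loosening of the primary wall, and on the xylem side they lay down a secondary wall of cellulose, hemicellulose and lignin before they die.

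The series holds 1 RNA-seq library per stage, from actively growing, reactivating and dormant cambium of trees about 16 years old that grew under natural conditions. All 3 libraries came from tangential cryosections of the stem, and messenger RNA was enriched on oligo(dT) beads, per the labels' protocols. The number of trees behind a library is not stated, and the labels describe no treatment, genotype or strand-specific step. The active library held 5.84 M uniquely mapped reads on 50498 unigenes and the dormant library 5.85 M on 49675. With 1 library per stage no difference has a replicate check, so no p-value is given and each value describes these libraries only. The 95% intervals in parentheses after a fold are exact counting intervals, and they do not cover variation between trees or PCR duplication. Where a library had 0 reads, the fold was taken against a floor of 3 reads and is a lower bound. Names are those of the best database hit, usually in another species, and several unigenes can be fragments of 1 transcript. In bulk tissue, fewer cells of a type and less RNA per cell cannot be told apart.

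The defining markers of cambium were present in both libraries. The WUSCHEL-type homeobox factor (Unigene51479), of a family that maintains meristems in Arabidopsis, had 192 reads in the active and 13 in the dormant library, 14.8-fold higher (8.44 to 28.3) in active. An AINTEGUMENTA-like factor (Unigene12165), of a family tied to organ growth and meristem competence, had 574 reads in the active and 543 in the dormant library, 1.06-fold higher (0.939 to 1.19) in active. Clavata-like receptors and class III homeodomain-leucine zipper factors, which are described below, were likewise read in both. Markers of the neighbouring tissues were present as well. Of 10 markers of differentiating xylem (COBRA-like proteins, xylem serine proteinases and metacaspases), 6 were higher in active cambium and 0 lower, and their reads summed to 2558 in the active and 1019 in the dormant library. The phloem list held only 3 sucrose transporters, of which 2 were lower and 0 higher, with 300 reads in active and 507 in dormant cambium, and no measured unigene carried a sieve element or phloem protein name. Transcripts named for photosynthesis, a sign of green bark, had 349 reads in the active and 439 in the dormant library over 17 unigenes. That list rests on best-hit names only. By GO annotation, photosynthetic electron transport chain had 1115 reads in active and 1819 in dormant cambium over 19 unigenes. Chloroplast thylakoid had 19061 and 20734 over 213. The amount of green bark in the sections was not tested. How far the amount of xylem, phloem and cambial cells in the sections contributes to any value below was not tested.

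The 2 libraries were alike in the centre of their distributions and differed in the tails. The median log2 ratio over all measured unigenes was 0.01, and 31.9% lay at least 2-fold apart in either direction. At 4-fold, 2843 unigenes were higher and 1637 lower in active cambium, at 10-fold 1172 and 545, and at 100-fold 89 and 35. The unigenes counted as higher took 26.7% of the reads of the active library and 6.85% of those of the dormant library. Those counted as lower took 5.57% of the active and 24.8% of the dormant reads. Each library thus gave a similar share of its reads to the unigenes that were more abundant in it. In the dormant library, 277 measured unigenes had 0 reads, of which 67 had at least 100 reads in active cambium. In the active library, 93 had 0 reads, of which 14 had at least 100 reads in dormant cambium.

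**Figure D1:**
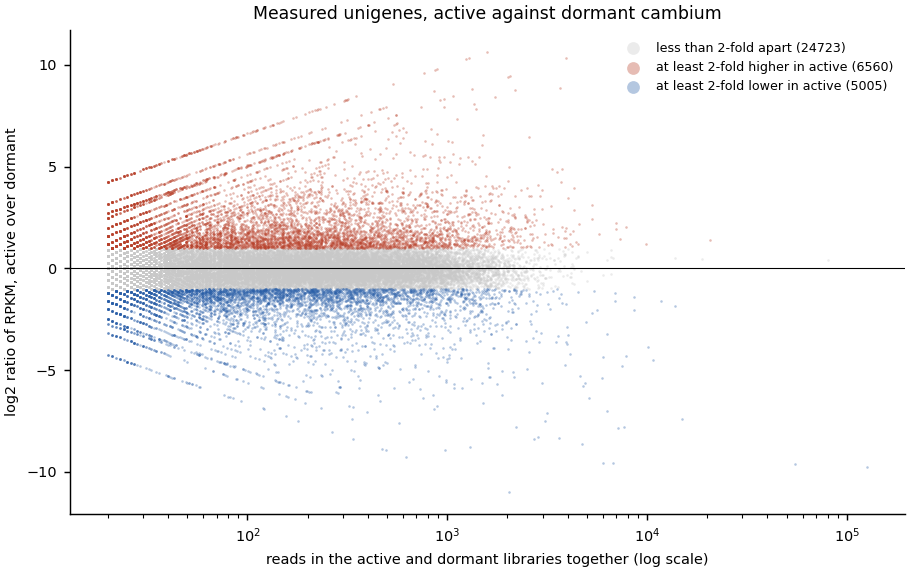
Each point is 1 of the 36288 measured unigenes, placed by its reads in the active and dormant libraries together (log axis) and by the log2 ratio of RPKM, active over dormant. Red points are at least 2-fold higher in active cambium (6560), blue points at least 2-fold lower (5005) and grey points lie between. Ratios reach beyond 100-fold both ways, and the diagonal lines of points at few reads come from whole-number counts.

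The depth behind a ratio set how firmly it can be read. Among unigenes with 20 to 49 reads in both libraries together, 23.3% were higher and 17.5% lower, yet the counting interval lay wholly beyond 2-fold for 12.4%. With at least 500 reads, 16.0% were higher and 12.0% lower, and the interval lay wholly beyond 2-fold for 22.3%. A best hit was given for 63.9% of the higher and 60.6% of the lower unigenes, against 65.8% of all measured ones. Unigenes with a best hit in Cryptomeria japonica, a relative of the same family, were higher in 14.5% and lower in 31.6% of 117 cases, with a median of -0.43, a group seen only after the values were known. Unigenes without any hit were counted as higher in 19.0% and as lower in 15.9% of 12422 cases, close to the shares over all measured unigenes.

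Gene ontology (GO) terms were read across all 3 branches, for every term with at least 15 measured unigenes. A GO process was given for 10232 of the measured unigenes (28.2%), and 240 process terms were large enough. Their medians mostly lay close to 0, with 12 at a log2 ratio of 1 or more and 2 at -1 or less. The high end was held by the building of the cell wall. Lignin metabolic process had 20 of 24 higher and 4 lower, median 2.22, or 4.73 among unigenes of at least 500 bases. Its 24 unigenes match 9 database entries. Plant-type cell wall biogenesis had 17 of 19 higher and 1 lower, median 1.95. Not every wall term was high, since the separate term cell wall biogenesis had 5 of 25 higher and 3 lower, median -0.27. External encapsulating structure organization, a broader term for wall building, had 53 of 70 higher and 4 lower, median 1.59. For glucan biosynthetic process, the term that covers cellulose, the values were 52 of 79 higher and 7 lower, median 1.59, though the median was 0.38 among unigenes of at least 500 bases. Movement along microtubules and receptor signalling came next. Microtubule-based process had 38 of 56 higher and 3 lower, median 1.47, and enzyme linked receptor protein signaling pathway had 32 of 53 higher and 4 lower, median 1.46.

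The low end of the process branch was held by transport and by reserve and membrane metabolism. Drug transport had 3 of 39 higher and 20 lower, median -1.13. Disaccharide metabolic process had 4 of 25 higher and 13 lower, median -1.13, and starch metabolic process 7 of 61 higher and 23 lower, median -0.63. Phospholipid metabolic process had 0 of 16 higher and 6 lower, median -0.86. Among its members an aminoalcoholphosphotransferase (Unigene43052), which joins the head group to a phospholipid, had 122 reads in the active and 509 in the dormant library, 4.17-fold lower (3.41 to 5.12) in active. Photosynthetic electron transport had 1 of 19 higher and 7 lower, median -0.68. Cellular amino acid derivative metabolic process, which includes phenylpropanoid enzymes, had 4 of 38 higher and 18 lower, median -0.77, or -1.74 among unigenes of at least 500 bases. The narrower term phenylpropanoid biosynthetic process went the other way, with 15 of 50 higher and 6 lower, median 0.41. Broad process terms with at least 200 members moved little, with medians between -0.14 for response to stress and 0.31.

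In the function branch, 12870 unigenes (35.5%) were annotated and 192 terms were large enough, of which 4 had a median of 1 or more and 0 a median of -1 or less. Oxidation of diphenols with oxygen as acceptor, a term that covers laccase activity, had 35 of 49 higher and 6 lower, median 2.17. It is wider than the 20 unigenes named as laccases. In the reactivating library the term had 9996 reads and those 20 had 903. Cellulose synthase activity had 46 of 52 higher and 2 lower, median 1.73. Motor activity had 39 of 54 higher and 1 lower, median 1.41, and tubulin binding 11 of 25 higher and 0 lower, median 0.89. S-methyltransferase activity had 10 of 16 higher and 0 lower, median 1.12, and beta-glucosidase activity 15 of 30 higher and 3 lower, median 0.90. The 16 S-methyltransferase unigenes match 6 database entries. On the low side, peroxidase activity had 1 of 18 higher and 8 lower, median -0.70. Secondary active transmembrane transporter activity, the gradient-driven carriers, had 16 of 70 higher and 27 lower, median -0.68. UDP-glucosyltransferase activity had 15 of 81 higher and 22 lower, median -0.43 (-0.15 among unigenes of at least 500 bases), and metal ion transmembrane transporter activity 7 of 54 higher and 19 lower, median -0.41. Galactosyltransferase activity had 6 of 17 higher and 8 lower, median -0.66, but its median was 0.51 among unigenes with at least 100 reads and 0.76 among those of at least 500 bases, so its direction depends on which unigenes are kept.

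In the component branch, 11114 unigenes (30.6%) were annotated and 66 terms were large enough. Cell wall had 99 of 219 higher and 25 lower, median 0.74. Microtubule cytoskeleton had 45 of 95 higher and 5 lower, median 0.92, and anchored to membrane 18 of 42 higher and 2 lower, median 0.81. The term plasma membrane part had 8 of 15 higher and 0 lower, median 1.05. Chromatin had 16 of 47 higher and 2 lower, median 0.50, or 0.07 among unigenes of at least 500 bases. The low end held plastid and proteasome terms, with smaller medians. Plastid outer membrane had 5 of 47 higher and 12 lower, median -0.61, and chloroplast stroma 4 of 31 higher and 9 lower, median -0.41. The proteasome regulatory particle had 1 of 37 higher and 7 lower, median -0.36, and vacuole 2 of 38 higher and 7 lower, median -0.33.

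**Figure D2:**
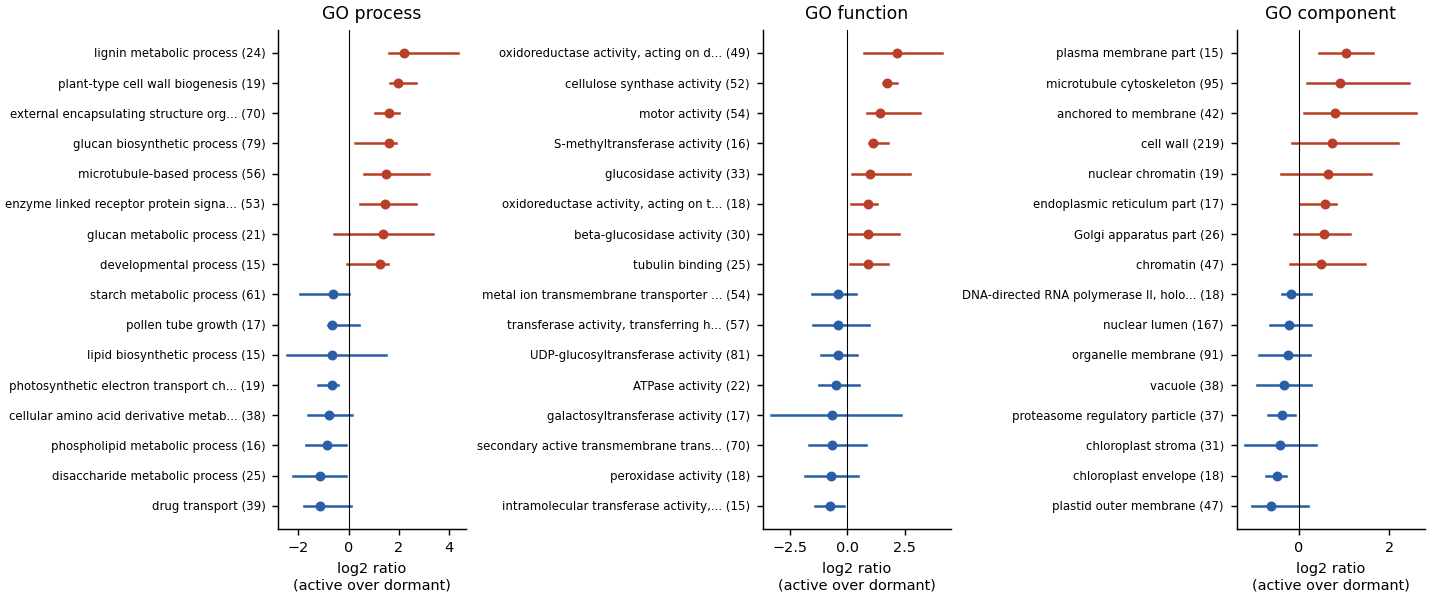
For each GO branch, the 8 named terms with the highest and the 8 with the lowest median log2 ratio (active over dormant) are shown, with the number of measured unigenes in parentheses. Points are medians over the unigenes of a term and bars run from the lower to the upper quartile. Wall and cytoskeleton terms sit to the right, with lignin metabolic process at a median of 2.22, and the lowest medians are -1.13 for drug transport and for disaccharide metabolic process.

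The best-hit names gave a finer view than the GO terms. A protein was named for 4234 measured unigenes, of which 20.5% were higher and 16.0% lower in active cambium. They were read through 48 lists of names, grouped by role, and each list is set against 18.1% higher, 13.8% lower and a median of 0.01 over all measured unigenes.

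**Figure D3:**
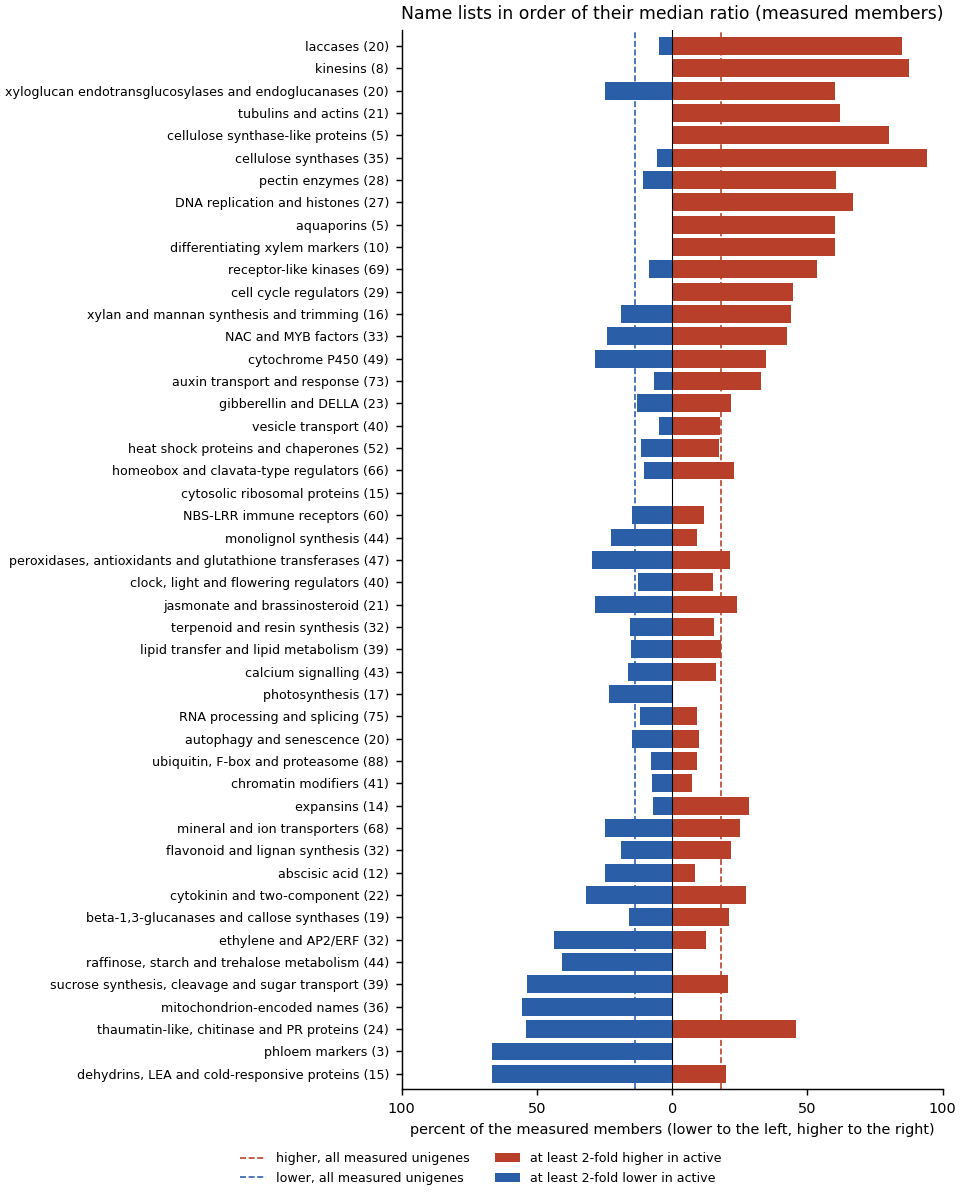
For each name list with at least 3 measured unigenes (number in parentheses), bars show the percent of members at least 2-fold lower in active cambium (blue, to the left) and at least 2-fold higher (red, to the right). Lists run from the highest median log2 ratio at the top to the lowest at the bottom, and the dashed lines mark 18.1% higher and 13.8% lower over all measured unigenes. Laccases, kinesins and cellulose synthases stand near the top and the dehydrin, LEA and cold-responsive list at the bottom.

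The name lists for DNA replication and for the cell cycle held higher members and none counted as lower, but the GO annotation of replication differed. DNA-dependent DNA replication, a GO process term, had 8 of 35 higher and 13 lower, median -0.52. Of 27 unigenes for DNA replication and histones, 18 were higher (66.7%), with a median log2 ratio of 1.78. Ribonucleotide reductase makes the building blocks of DNA, and its large subunit A (Unigene58072) had 1402 reads in the active and 32 in the dormant library, 43.9-fold higher (30.9 to 64.4) in active. Its small chain (Unigene54086) had 143 reads in the active and 0 in the dormant library, at least 47.7-fold higher in active. Both parts of the enzyme were thus scarce in the dormant library, and the small chain was not read there at all. For 1 of the minichromosome maintenance proteins (Unigene17730), which unwind DNA ahead of its replication, the counts were 296 reads in the active and 8 in the dormant library, 37.03-fold higher (18.6 to 86.6) in active. The core histones split. A histone H2A variant (Unigene6917) was 7.52-fold higher (5.27 to 11.03) in active cambium, whereas the abundant histone H2B.2 (Unigene30599) was 1.25-fold higher (1.11 to 1.41). Enzymes of thymidylate supply differed little, with 413 reads in active and 467 in dormant cambium, 1.13-fold lower (0.987 to 1.29), for a bifunctional dihydrofolate reductase-thymidylate synthase (Unigene57530). Of 29 cell cycle regulators, 13 were higher (44.8%, median 0.92). A regulator of cytokinesis (Unigene57967), which bundles microtubules between the daughter nuclei, had 245 reads in the active and 6 in the dormant library, 40.9-fold higher (18.5 to 112) in active. A second unigene of the same name (Unigene58589) had 596 reads in active and 480 in dormant cambium and was 1.24-fold higher (1.1 to 1.4). Of 6 unigenes named retinoblastoma-related protein, which restrains entry into DNA synthesis, 3 were higher and 3 within 2-fold, and the most abundant (Unigene18560) was 2.3-fold higher (1.93 to 2.74).

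No member of the kinesin list or of the tubulin and actin list was counted as lower. Of 8 kinesins, motors that move along microtubules, 7 were higher, with a median of 3.29, and their reads summed to 2994 in the active and 591 in the dormant library. A kinesin heavy chain (Unigene14442) alone had 2081 reads in the active and 419 in the dormant library, 4.97-fold higher (4.47 to 5.53) in active. Of 21 tubulins, actins and associated proteins, 13 were higher (61.9%, median 2.32) and 0 lower, and the reads summed to 19563 in active and 5229 in dormant cambium. An alpha-tubulin (Unigene6470) reached an RPKM of 1758 in the active and 339.7 in the dormant library and was 5.17-fold higher (4.67 to 5.74). A beta-tubulin (Unigene56293) had 1585 reads in the active and 96 in the dormant library, 16.5-fold higher (13.4 to 20.5) in active. The actin unigenes spread widely, from 1.57-fold lower (0.768 to 3.32) for Unigene5610, at few reads, to 139.6-fold higher (54.2 to 514) for Unigene40842, which had only 4 reads in dormant cambium. Other members of the list were near equal. Gamma-tubulin (Unigene59378), which starts new microtubules, had 609 reads in active and 614 in dormant cambium, 1.01-fold lower (0.899 to 1.13), and the microtubule-associated protein 70-1 (Unigene56380) was 1.29-fold lower (1.15 to 1.44) in active cambium. Many of the tubulin and actin unigenes are short fragments, and among the 8 of at least 500 bases 25% were higher.

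The loosening and remodelling of the primary wall included the largest ratio among all named unigenes on the higher side. Of 20 xyloglucan endotransglucosylases and endoglucanases, which cut and rejoin the tethers between cellulose fibrils, 12 were higher and 5 lower (median 2.54). The most abundant of the endo-beta-1,4-glucanases (Unigene49670) reached 3651 reads in the active and 8 in the dormant library, 457-fold higher (232 to 1059) in active. Another (Unigene47139) had 1576 reads in the active and 1 in the dormant library, 1578-fold higher (283 to 62347) in active. Unigene49670 had an RPKM of 1429.8 in the active and 3.13 in the dormant library. In contrast, a xyloglucan galactosyltransferase (Unigene18768), which decorates xyloglucan in the Golgi, was 2.81-fold lower (2.33 to 3.41). Of 28 pectin enzymes, 17 were counted as higher and 3 as lower (60.7% and 10.7%, median 1.78). Pectate lyase (Unigene52045), which cleaves the pectin backbone, had 999 reads in the active and 13 in the dormant library, 76.9-fold higher (44.8 to 145) in active. A pectin methylesterase-like protein (Unigene50826), of enzymes that remove methyl groups from pectin, had 677 reads in the active and 83 in the dormant library, 8.16-fold higher (6.49 to 10.4) in active. Lower members existed as well, such as a pectinesterase (Unigene34411) with 6 reads in active and 120 in dormant cambium, 19.98-fold lower (8.92 to 55.5).

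Expansins, which loosen walls without cutting them, split into a small higher and a larger near-equal part. Of 14 expansins, 4 were counted as higher and 1 as lower, and the median was -0.27. Alpha-expansin 3 (Unigene57087) had 1619 reads in the active and 186 in the dormant library, 8.71-fold higher (7.48 to 10.2) in active. Expansin 2 (Unigene25630) had 557 reads in the active and 43 in the dormant library, 12.97-fold higher (9.5 to 18.1) in active. Of 6 unigenes named expansin-like protein, 5 were within 2-fold and 1 (Unigene53531) was lower, with 63 reads in active and 611 in dormant cambium, 9.69-fold lower (7.47 to 12.8). The beta-1,3-glucanases and callose synthases, which remove and make the callose that can close pores between cells, included opposite extremes. Of 19 measured members, 4 were counted as higher and 3 as lower (median -0.50). A beta-1,3-glucanase (Unigene57007) had 1241 reads in the active and 1 in the dormant library, 1242-fold higher (223 to 49103) in active. An endo-beta-1,3-glucanase (Unigene41697) had 0 reads in the active and 339 in the dormant library, at least 113-fold lower in active. Each was thus at or near 0 reads in 1 of the 2 libraries, whereas a callose synthase (Unigene11761) was 1.67-fold lower (1.51 to 1.83).

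Cellulose synthases had the highest share of higher members among the lists. Of 35 measured unigenes, which match 17 database entries, 33 were higher (94.3%) and 2 lower, with a median of 1.95. Their reads summed to 13899 in the active and 3038 in the dormant library. The most abundant (Unigene43616) reached an RPKM of 961 in the active and 144 in the dormant library and was 6.67-fold higher (5.85 to 7.62). A catalytic subunit (Unigene59204) had 1517 reads in the active and 117 in the dormant library, 12.98-fold higher (10.7 to 15.8) in active. Among members of at least 500 bases the shares were 77.8% higher and 22.2% lower. The 2 lower members were Unigene16267, with 38 reads in active and 260 in dormant cambium, 6.84-fold lower (4.85 to 9.88), and Unigene53568, with 92 reads in active and 295 in dormant cambium, 3.2-fold lower (2.53 to 4.09). Cellulose synthase-like proteins, which make the mannan and glucan backbones of other wall polymers, were higher in 4 of 5 cases. Cellulose synthase-like A2 (Unigene58288), of the mannan-making type, had 1095 reads in the active and 174 in the dormant library, 6.3-fold higher (5.36 to 7.43) in active. Of 16 unigenes for xylan and mannan synthesis and trimming, 7 were counted as higher and 3 as lower (median 0.81). Under the name alpha-L-arabinofuranosidase/beta-D-xylosidase, an enzyme that trims xylan side chains, Unigene45625 had 721 reads in the active and 52 in the dormant library, 13.9-fold higher (10.5 to 18.8) in active. Another unigene of that name, Unigene45159, had 131 reads in the active and 996 in the dormant library, 7.6-fold lower (6.33 to 9.18) in active.

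Laccases and the enzymes that make monolignols differed in their counts. Laccases, which oxidise monolignols in the wall so that they join into lignin, were higher in 17 of 20 unigenes and lower in 1, with a median of 3.70. The 20 unigenes match 8 database entries, so several can be fragments of 1 transcript. Their reads summed to 13165 in the active and 3503 in the dormant library. The most abundant laccase (Unigene56615) had 5357 reads in the active and 1974 in the dormant library, 2.72-fold higher (2.58 to 2.86) in active. The laccase with the largest fold (Unigene4888) had 857 reads in the active and 2 in the dormant library, 429-fold higher (118 to 3547) in active. The single lower laccase (Unigene39882) had 26 reads in the active and 361 in the dormant library, 13.9-fold lower (9.31 to 21.5) in active. The laccases thus ranged from several that were all but absent in dormant cambium to 1 that was scarce in active cambium. Peroxidases, which can also oxidise monolignols in the wall, were more often lower under the GO term peroxidase activity, as given above. Of 44 unigenes for monolignol synthesis, 4 were counted as higher and 10 as lower (9.09% and 22.7%, median 0.12). The reads of these 44 summed to 10409 in active and 10612 in dormant cambium. Coumarate 3-hydroxylase (Unigene21933), which adds a hydroxyl group to the phenolic ring, had 706 reads in the active and 217 in the dormant library, 3.26-fold higher (2.79 to 3.81) in active. A cinnamoyl-CoA reductase (Unigene32440), the first enzyme specific to monolignols, was 2.14-fold higher (1.84 to 2.5). Phenylalanine ammonia-lyase, the entry to the phenylpropanoid pathway, had 1 of 9 unigenes lower under this name and 3 of 6 under the spelling without a hyphen, with 0 higher and the rest within 2-fold. The lower one of the 9 (Unigene44660) had 441 reads in the active and 996 in the dormant library, 2.26-fold lower (2.02 to 2.53) in active. A 4-coumarate:CoA ligase (Unigene55723), which activates the acid for the later steps, had 281 reads in the active and 961 in the dormant library, 3.42-fold lower (2.99 to 3.92) in active.

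**Figure D4:**
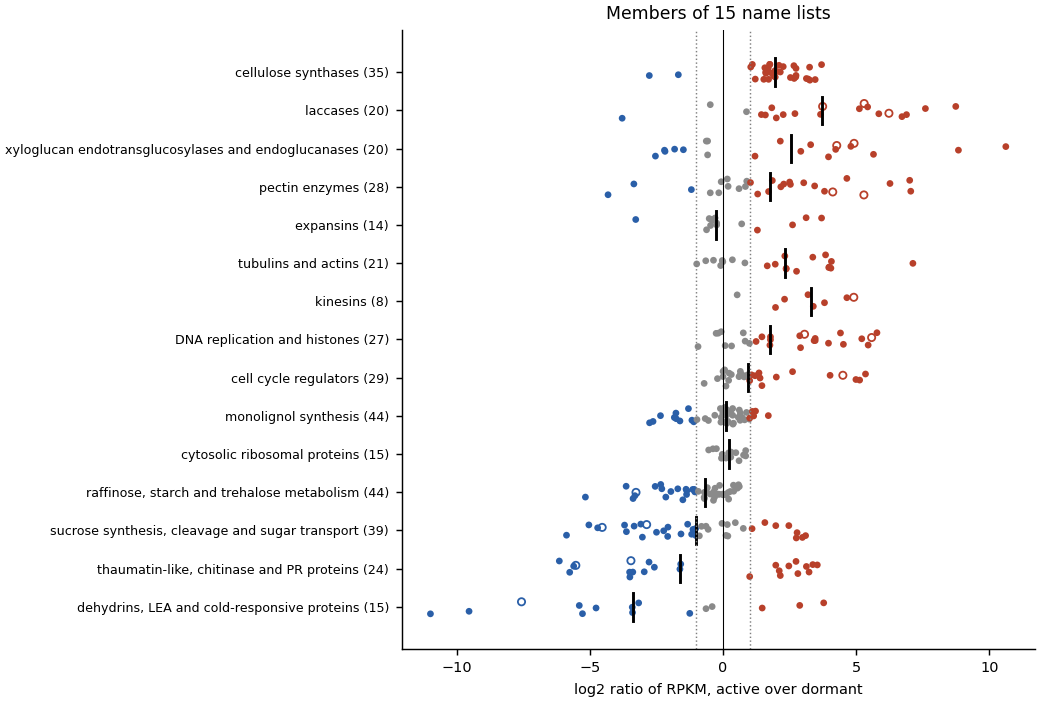
Each point is 1 measured unigene of the list named on the left (number of members in parentheses), placed by its log2 ratio of RPKM, active over dormant. Red points are at least 2-fold higher in active cambium, blue points at least 2-fold lower and grey points between the dotted lines. Open circles have 0 reads in 1 library and stand at their lower bound, and black bars are medians. Cellulose synthases lie almost wholly to the right, monolignol enzymes around 0 and the dehydrin, LEA and cold-responsive list mostly to the left.

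NAC and MYB factors, the families that in Arabidopsis include the switches of secondary wall formation, went both ways. Of 33 unigenes, 14 were counted as higher and 8 as lower (42.4% and 24.2%). An R2R3-Myb4 factor (Unigene1847) had 129 reads in the active and 0 in the dormant library, at least 43.04-fold higher in active. The R2R3-MYB factor MYB8 (Unigene59406) had 556 reads in the active and 104 in the dormant library, 5.35-fold higher (4.33 to 6.66) in active. On the low side a MYB-like protein (Unigene6183) had 227 reads in the active and 1153 in the dormant library, 5.07-fold lower (4.4 to 5.88) in active. A NAC domain protein (Unigene15983) had 35 reads in the active and 297 in the dormant library, 8.48-fold lower (5.96 to 12.4) in active. The RPKM in active cambium was 51.1 for Unigene1847 and 46.8 for Unigene59406.

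Regulators of meristem identity and vascular patterning were present at both stages, and a few were many-fold higher in active cambium. Of 66 homeobox and clavata-type regulators, 15 were counted as higher and 7 as lower (22.7% and 10.6%, median 0.22), close to the shares over all measured unigenes. A class III homeodomain-leucine zipper factor (Unigene59489), of a family that patterns vascular tissue, had 4027 reads in the active and 257 in the dormant library, 15.7-fold higher (13.8 to 17.9) in active. A second one (Unigene56176) had 377 reads in the active and 41 in the dormant library, 9.2-fold higher (6.66 to 13.04) in active. Of 14 clavata-like receptors, which limit stem cell number in Arabidopsis, 1 was higher, 2 were lower and 11 lay within 2-fold. The higher one (Unigene1876) had 945 reads in the active and 137 in the dormant library, 6.9-fold higher (5.77 to 8.32) in active. SCARECROW-like protein 1 (Unigene59554), a GRAS family factor, went the other way, with 319 reads in active and 1167 in dormant cambium, 3.65-fold lower (3.23 to 4.15).

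Auxin, the hormone that flows down the stem through the cambium and marks its dividing zone, gave a list with more higher than lower members. Of 73 unigenes, 24 were counted as higher and 5 as lower (32.9% and 6.85%, median 0.44). The auxin-induced protein 5NG4 (Unigene54524), first described in pine, had 766 reads in the active and 1 in the dormant library, 767-fold higher (137 to 30323) in active. Another 5NG4-like unigene (Unigene9585) had 38 reads in the active and 341 in the dormant library, 8.97-fold lower (6.4 to 12.9) in active. So 2 unigenes of nearly the same name lay on opposite sides. An auxin:hydrogen symporter (Unigene12777) was 3.74-fold lower (3.18 to 4.41), and an auxin receptor of the TIR1/AFB type (Unigene59573) was 2.05-fold lower (1.66 to 2.54).

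The other hormone lists were mixed. Of 23 gibberellin and DELLA unigenes, 5 were counted as higher and 3 as lower (21.7% and 13.0%, median 0.30), close to the shares over all measured unigenes. The GASA5-like protein (Unigene46844), a small peptide of a gibberellin-regulated family, had 1907 reads in the active and 96 in the dormant library, 19.9-fold higher (16.2 to 24.7) in active. The GRAS factor with the most reads (Unigene59462) was 1.26-fold lower (1.18 to 1.36). Of 22 cytokinin and two-component unigenes, 6 were counted as higher and 7 as lower (median -0.40). A cytokinin receptor of the histidine kinase type (Unigene16439) had 340 reads in the active and 85 in the dormant library, 4.0-fold higher (3.15 to 5.14) in active. Cytokinin oxidase (Unigene5051), which breaks the hormone down, was also higher, 3.48-fold higher (2.59 to 4.73). Of the 7 lower members 5 were response regulators, such as circadian response regulator 2b (Unigene59341), a name of the clock type, with 234 reads in active and 1065 in dormant cambium, 4.55-fold lower (3.94 to 5.26).

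Ethylene and AP2/ERF unigenes were lower more often than all measured unigenes. Of 32, 4 were counted as higher and 14 as lower (12.5% and 43.8%, median -0.64), and of those of at least 500 bases 25% were lower. ERF transcription factor 4 (Unigene24734) had 2 reads in the active and 171 in the dormant library, 85.4-fold lower (23.3 to 711) in active. An AP2-EREBP factor (Unigene5411) had 0 reads in the active and 151 in the dormant library, at least 50.3-fold lower in active. Several unigenes for ACC oxidase, the last enzyme of ethylene synthesis, were lower, for example Unigene7819 with 65 reads in active and 299 in dormant cambium, 4.6-fold lower (3.5 to 6.11). A different ACC oxidase (Unigene12937) had 550 reads in the active and 6 in the dormant library, 91.8-fold higher (41.9 to 251) in active. The 2 ACC oxidase unigenes thus lay on opposite sides. Of 12 abscisic acid unigenes, 1 was counted as higher and 3 as lower (median -0.33). An ABI5-like factor (Unigene14359), which acts late in abscisic acid signalling, had 172 reads in the active and 487 in the dormant library, 2.83-fold lower (2.37 to 3.39) in active. The rate-setting synthesis enzyme 9-cis-epoxycarotenoid dioxygenase (Unigene3228) was 1.28-fold lower (0.92 to 1.78), an interval that includes no difference. Among 21 jasmonate and brassinosteroid unigenes, 5 were counted as higher and 6 as lower. The lower ones included allene oxide synthase (Unigene54148), an enzyme of jasmonate synthesis, with 205 reads in active and 537 in dormant cambium, 2.62-fold lower (2.22 to 3.09). The higher ones included a brassinosteroid-like receptor (Unigene53517), with 1152 reads in active and 145 in dormant cambium, 7.95-fold higher (6.69 to 9.52).

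Receptor-like kinases were higher far more often than lower. Of 69 unigenes, 37 were counted as higher and 6 as lower (53.6% and 8.7%, median 1.01), and their reads summed to 12435 in the active and 5790 in the dormant library. A leucine-rich repeat receptor-like kinase (Unigene836) had 587 reads in the active and 48 in the dormant library, 12.2-fold higher (9.11 to 16.8) in active. A nodulation receptor kinase precursor (Unigene18900) had 143 reads in the active and 0 in the dormant library, at least 47.7-fold higher in active. The receptor-like kinase THESEUS 1 (Unigene45744), a monitor of wall integrity in Arabidopsis, was lower, with 28 reads in active and 86 in dormant cambium, 3.07-fold lower (1.98 to 4.88). Of 60 NBS-LRR immune receptors, which sense pathogen effectors inside the cell, 7 were counted as higher and 9 as lower (11.7% and 15%), with a median of 0.16, and of those of at least 500 bases 4.17% were higher. Among them a CC-NBS-LRR protein (Unigene14262) had 3 reads in the active and 193 in the dormant library, 64.3-fold lower (21.7 to 314) in active. Of 43 calcium signalling unigenes, 7 were counted as higher and 7 as lower (16.3% each way), close to the 18.1% and 13.8% over all measured unigenes. Calcineurin B-like protein 01 (Unigene57273), a calcium sensor, was 3.47-fold higher (2.46 to 4.99), and a calcium-dependent protein kinase (Unigene57148) was 2.03-fold lower (1.82 to 2.25).

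Vesicle transport, which carries wall polysaccharides and synthases to the surface, was higher in 7 and lower in 2 of 40 unigenes (17.5% and 5%), median 0.29. The higher share was close to the 18.1% over all measured unigenes, and the lower share was below the 13.8%. A Sec14-like protein (Unigene24655), of a family that moves phospholipids between membranes, had 760 reads in the active and 16 in the dormant library, 47.5-fold higher (29.1 to 83.6) in active. A second Sec14 family protein (Unigene48983) had 1343 reads in the active and 38 in the dormant library, 35.4-fold higher (25.6 to 50.2) in active. An ADP-ribosylation factor (Unigene18361), a switch of vesicle budding, was 4.8-fold higher (4.07 to 5.69), while sec15 (Unigene11337), part of the complex that tethers vesicles to the plasma membrane, was 2.04-fold lower (1.81 to 2.31).

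Proteins of cold tolerance and drying held the 3 named unigenes with the lowest ratios. Of 15 dehydrins, LEA and cold-responsive unigenes, 3 were higher and 10 lower (20% and 66.7%, median -3.40), and the reads summed to 1484 in the active and 28568 in the dormant library. A LEA-like protein (Unigene38057) had 8 reads in the active and 5974 in the dormant library, 746-fold lower (378 to 1729) in active. A dehydrin (Unigene48155), of a family that protects membranes and enzymes as water freezes out, had 264 reads in the active and 7234 in the dormant library, 27.4-fold lower (24.2 to 31.1) in active. Another dehydrin (Unigene20916) had 1 read in the active and 2036 in the dormant library, 2034-fold lower (365 to 80380) in active. Of these, Unigene38057 and Unigene48155 were among the 5 named unigenes with the highest RPKM of dormant cambium, at 4005 and 3123. A low-temperature-induced protein (Unigene48650) was 38.96-fold lower (32.4 to 47.3), and a cold acclimation protein COR413-TM1 (Unigene37035) was 9.03-fold lower (7.16 to 11.5). The LEA protein D-34 (Unigene37490) had 0 reads in the active and 571 in the dormant library, at least 190.2-fold lower in active. Not all members followed, since an ABA-responsive LEA-like protein (Unigene4398) had 125 reads in active and 17 in dormant cambium, 7.36-fold higher (4.42 to 13.04).

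The name list for carbohydrate reserves held lower and no higher members, while the GO term starch metabolic process had members on both sides. Some of its unigenes are also annotated to enzyme linked receptor protein signaling pathway. These include the higher Unigene50211 and Unigene43277 and the lower Unigene40212, so the 2 GO terms are not separate sets. Of 44 unigenes for raffinose, starch and trehalose metabolism, 0 were higher and 18 lower (40.9%, median -0.66), with 8769 reads in the active and 16045 in the dormant library. Galactinol synthase 1 (Unigene36635), the first enzyme towards raffinose, had 7 reads in the active and 252 in the dormant library, 35.97-fold lower (17.2 to 90.4) in active. A raffinose synthase-like protein (Unigene485) had 26 reads in the active and 324 in the dormant library, 12.4-fold lower (8.34 to 19.3) in active. Raffinose is a sugar known to build up in cold-hardened plant tissue. The starch branching enzyme II (Unigene57070) had 60 reads in the active and 596 in the dormant library, 9.92-fold lower (7.6 to 13.2) in active. An isoamylase (Unigene58592), which trims branches of starch, was 5.07-fold lower (4.19 to 6.18), and an alpha amylase-like protein (Unigene58635), which breaks starch down, was 5.84-fold lower (4.34 to 8.0). Granule-bound starch synthase (Unigene23756) differed little, 1.21-fold higher (0.986 to 1.48), as did a trehalose-6-phosphate synthase (Unigene57207), 1.16-fold higher (1.05 to 1.27).

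Sucrose metabolism had members on both sides, with more of them lower. Of 39 unigenes for sucrose synthesis, cleavage and sugar transport, 8 were counted as higher and 21 as lower (20.5% and 53.8%, median -1.03). Sucrose phosphate synthase (Unigene51482), which makes sucrose, had 47 reads in the active and 584 in the dormant library, 12.4-fold lower (9.21 to 17.1) in active. A beta-fructofuranosidase (Unigene17421), an invertase that splits sucrose, had 9 reads in the active and 532 in the dormant library, 59.1-fold lower (30.9 to 129.9) in active. A sugar transporter family protein (Unigene53448) had 10 reads in the active and 330 in the dormant library, 32.97-fold lower (17.7 to 69.4) in active. Of 6 unigenes named sucrose synthase, 4 were higher and 2 lower, and this enzyme splits sucrose into fructose and the sugar nucleotide used by cellulose synthase. No member of at least 500 bases was higher, so the higher members are all shorter unigenes. Unigene33279 had 1232 reads in the active and 223 in the dormant library, 5.53-fold higher (4.79 to 6.41) in active, and Unigene37816 had 387 reads in the active and 49 in the dormant library, 7.91-fold higher (5.86 to 10.9) in active. The longest sucrose synthase unigene (Unigene7109) had 393 reads in the active and 800 in the dormant library, 2.03-fold lower (1.8 to 2.3) in active. A hexose transporter 2 (Unigene35461) had 292 reads in the active and 34 in the dormant library, 8.6-fold higher (6.01 to 12.7) in active. Of the 3 sucrose transporters of the phloem list, Unigene7925 was 10.1-fold lower (6.04 to 18.1), Unigene40301 was 8.49-fold lower (4.66 to 16.97) and Unigene11789 was 1.12-fold higher (0.939 to 1.34).

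Thaumatin-like, chitinase and pathogenesis-related (PR) proteins had no member within 2-fold. Of 24 unigenes, 11 were counted as higher and 13 as lower (median -1.61), and the reads summed to 4285 in active and 12700 in dormant cambium. The thaumatin-like protein Unigene44483 had 86 reads in the active and 4670 in the dormant library, 54.3-fold lower (43.8 to 67.96) in active. A second (Unigene42965) had 98 reads in the active and 4789 in the dormant library, 48.8-fold lower (39.97 to 60.3) in active. Other thaumatin-like unigenes went the opposite way, for example Unigene24737, with 392 reads in active and 71 in dormant cambium, 5.53-fold higher (4.28 to 7.22). Defensin-2 (Unigene47084), an antimicrobial peptide, had 0 reads in the active and 139 in the dormant library, at least 46.3-fold lower in active. Dirigent-like proteins, which steer the coupling of phenolic radicals, were divided in the same manner. Unigene49811 had 1129 reads in the active and 97 in the dormant library, 11.7-fold higher (9.46 to 14.5) in active, and Unigene6520 had 2 reads in the active and 142 in the dormant library, 70.9-fold lower (19.3 to 591) in active. A senescence-associated protein (Unigene41816) had 18 reads in active and 1064 in dormant cambium, 59.1-fold lower (37.2 to 100.03). A cyclophilin (Unigene42178), a protein-folding enzyme, had 39 reads in the active and 1597 in the dormant library, 40.9-fold lower (29.8 to 57.8) in active.

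Secondary metabolism and redox enzymes showed changes in both directions. Of 47 peroxidases, antioxidant enzymes and glutathione transferases, 10 were counted as higher and 14 as lower (21.3% and 29.8%). Peroxidase 47 (Unigene56335), of a class that acts in the wall, had 210 reads in the active and 1672 in the dormant library, 7.95-fold lower (6.89 to 9.23) in active. A peroxidase without a number (Unigene39276) had 140 reads in the active and 12 in the dormant library, 11.7-fold higher (6.48 to 23.1) in active. Of 49 cytochrome P450 unigenes, 17 were counted as higher and 14 as lower (34.7% and 28.6%), and among those of at least 500 bases 8.33% were higher and 50% lower. Cytochrome P450 704C1 (Unigene58376) had 2352 reads in the active and 150 in the dormant library, 15.7-fold higher (13.3 to 18.6) in active, whereas cytochrome P450 78A4 (Unigene5913) had 9 reads in the active and 236 in the dormant library, 26.2-fold lower (13.6 to 58.00) in active. Of 32 flavonoid and lignan unigenes, 7 were counted as higher and 6 as lower (21.9% and 18.8%), all of them shorter than 500 bases. The isoflavone reductase-like protein CJP-6 showed both directions under 1 name, 23.01-fold higher (17.9 to 29.97) for Unigene48885 and 2.01-fold lower (1.78 to 2.27) for Unigene14513. A flavonol synthase (Unigene31624) was 7.24-fold lower (5.1 to 10.6). Of 32 terpenoid and resin unigenes, 5 were counted as higher and 5 as lower (15.6% each way), with a median of 0.02. Among those with at least 100 reads, 0 were higher. The alpha pinene synthase (Unigene10582), which makes a main component of conifer resin, had 176 reads in the active and 861 in the dormant library, 4.89-fold lower (4.15 to 5.78) in active. Of 39 lipid unigenes, 7 were counted as higher and 6 as lower (17.9% and 15.4%). The terpenoid and lipid shares were thus close to the 18.1% higher and 13.8% lower over all measured unigenes. A sphingolipid delta 4 desaturase (Unigene57542) had 535 reads in the active and 4 in the dormant library, 134-fold higher (51.98 to 493) in active, while phospholipase D alpha (Unigene27182) had 26 reads in the active and 360 in the dormant library, 13.8-fold lower (9.29 to 21.5) in active. The organelle-membrane GO term was led on the low side by 3-hydroxy-3-methylglutaryl coenzyme A reductase (Unigene935), the main control point of cytosolic isoprenoid synthesis, with 63 reads in active and 994 in dormant cambium, 15.8-fold lower (12.2 to 20.7).

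Transporters of minerals and ions were evenly divided, with 17 higher and 17 lower of 68 (25% each way). A copper-transporting ATPase (Unigene18726), of the pumps that load copper into secreted proteins, had 866 reads in the active and 60 in the dormant library, 14.4-fold higher (11.1 to 19.1) in active. A sulfate transporter (Unigene42441) had 119 reads in the active and 10 in the dormant library, 11.9-fold higher (6.26 to 25.5) in active, and a nitrate transporter (Unigene5114) had 17 reads in the active and 120 in the dormant library, 7.05-fold lower (4.23 to 12.5) in active. Of 5 aquaporins, the water channels of membranes, 3 were higher and 0 lower. A putative aquaporin (Unigene24515) had 779 reads in the active and 189 in the dormant library, 4.13-fold higher (3.52 to 4.86) in active. The plasma membrane intrinsic protein Unigene49827 had 2138 reads in the active and 2167 in the dormant library, 1.01-fold lower (0.953 to 1.08) in active, so that it did not differ beyond counting error between these libraries.

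The machinery of protein and RNA turnover differed little. None of 15 cytosolic ribosomal proteins lay 2-fold apart, and their median was 0.21, with 60S ribosomal protein L23 (Unigene10555) 1.81-fold higher (1.63 to 2.01). Of 88 ubiquitin, F-box and proteasome unigenes, 8 were counted as higher and 7 as lower. Of 75 unigenes for RNA processing, 7 were counted as higher and 9 as lower. Of 41 chromatin modifiers, 3 were counted as higher and 3 as lower, and a DNA methyltransferase (Unigene13656), which copies methylation onto new DNA, was 2.77-fold higher (2.15 to 3.59). All of these shares lie below those over all measured unigenes. Of 40 clock, light and flowering regulators, 6 were counted as higher and 5 as lower (15% and 12.5%), close to the shares over all measured unigenes. Among them pseudo-response regulator 7 (Unigene13619), a clock component, was 4.19-fold lower (3.17 to 5.62). Of 20 autophagy and senescence unigenes, 2 were counted as higher and 3 as lower, and the abundant autophagy 8 (Unigene55098) was 1.62-fold higher (1.52 to 1.73). Heat shock proteins held the most abundant named unigene of both libraries, a small heat-shock protein (Unigene26755), with an RPKM of 7518 in the active and 5318 in the dormant library. A bark protein-like protein (Unigene1548), also among the 5 most abundant named unigenes of active cambium, was 4.46-fold higher (4.14 to 4.81). Of 52 heat shock proteins and chaperones, 9 were counted as higher and 6 as lower (17.3% and 11.5%), close to the shares over all measured unigenes. Of those of at least 500 bases 4.55% were higher. A heat shock protein (Unigene26829) had 2407 reads in the active and 317 in the dormant library, 7.6-fold higher (6.76 to 8.57) in active, and a heat shock-like protein (Unigene48028) had 59 reads in the active and 768 in the dormant library, 13.01-fold lower (9.97 to 17.2) in active.

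Transcripts named for mitochondrion-encoded proteins and for photosynthesis were lower or within 2-fold. Of 36 unigenes with names of mitochondrion-encoded proteins, 0 were higher and 20 lower (55.6%, median -1.07), and the reads summed to 1767 in the active and 3033 in the dormant library. The RNA was enriched on oligo(dT) beads, and how that step captured organelle-encoded transcripts in each library was not tested. These counts are therefore no measure of mitochondrial gene expression. Of 17 photosynthesis unigenes, 0 were higher and 4 lower. The mitochondrion-encoded names had 3033 reads in dormant, 4374 in reactivating and 1767 in active cambium, so the reactivating library was the highest.

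Names shared by at least 5 measured unigenes gave 105 families with 883 members. In 20 of them the median log2 ratio was 1 or more and in 7 it was -1 or less, and 42 held members counted in both directions. Argonaute/Zwille-like proteins, which load small RNAs, were higher in 6 of 6 unigenes with a median of 2.69. These 6 share 1 best hit, so they can be fragments of 1 transcript, and their reads summed to 478 in active and 67 in dormant cambium. Putative beta-glucosidases had 5 of 6 higher (median 3.55), and putative serine carboxypeptidases 5 of 6 (median 2.76). At the other end, unigenes named GST (glutathione S-transferase, a detoxifying enzyme) had 5 of 6 lower and 0 higher (median -1.82), but their summed reads were 974 in active and 873 in dormant cambium, and all 6 share 1 best hit. NADPH-cytochrome P450 reductase, which passes electrons to the P450 enzymes, depended on the spelling of the name, with 5 of 6 lower under this one (median -1.38) and 1 of 6 lower under NADPH:cytochrome P450 reductase (median 0.12), and 0 higher under either.

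The most abundant unigenes of the dormant library had no name. Unigene37845, with a best hit of unknown function, had 143 reads in the active and 125423 in the dormant library, 876-fold lower (744 to 1039.8) in active. Its RPKM of 84758 was the top of the dormant library. Unigene41453, without a hit, had 71 reads in the active and 54668 in the dormant library, 769-fold lower (609.7 to 985) in active. These 2 unigenes alone took a larger share of the dormant reads than any named list above. In the other direction Unigene13069, of unknown function, had 2062 reads in the active and 0 in the dormant library, at least 688-fold higher in active, and Unigene53221 had 2008 reads in the active and 0 in the dormant library, at least 669.97-fold higher in active. Unigene56045, a predicted protein annotated to the cell wall, had 3943 reads in the active and 3 in the dormant library, 1316-fold higher (449.8 to 6382) in active.

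The reactivating library gives the level between the 2 stages for the same unigenes. The cellulose synthases had 3038 reads in dormant, 1860 in reactivating and 13899 in active cambium. The laccases had 3503, 903 and 13165 reads at the dormant, reactivating and active stages. The sums of both lists were thus lowest at reactivation, and their ratio of active to dormant is the net of a low and a high level. Among the cellulose synthases the names differed. The 14 unigenes named cellulose synthase catalytic subunit had 1350, 181 and 7075 reads at the dormant, reactivating and active stages. The 16 named cellulose synthase had 1270, 1398 and 4679 reads, lowest in dormant cambium. The most abundant laccase (Unigene56615) had 1974 reads in dormant, 21 in reactivating and 5357 in active cambium. For the water channel Unigene49827, the dormant library held 2167 reads, the reactivating library 12 and the active library 2138. A ratio of about 1 between the active and dormant libraries therefore does not mean a constant level through the season. The DNA replication and histone list had 2246 reads in dormant, 7633 in reactivating and 5961 in active cambium. Dehydrins, LEA and cold-responsive unigenes had 28568 reads in dormant, 1559 in reactivating and 1484 in active cambium. The monolignol enzymes stayed closer together, with 10612, 8726 and 10409 reads at the dormant, reactivating and active stages.

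**Figure D5:**
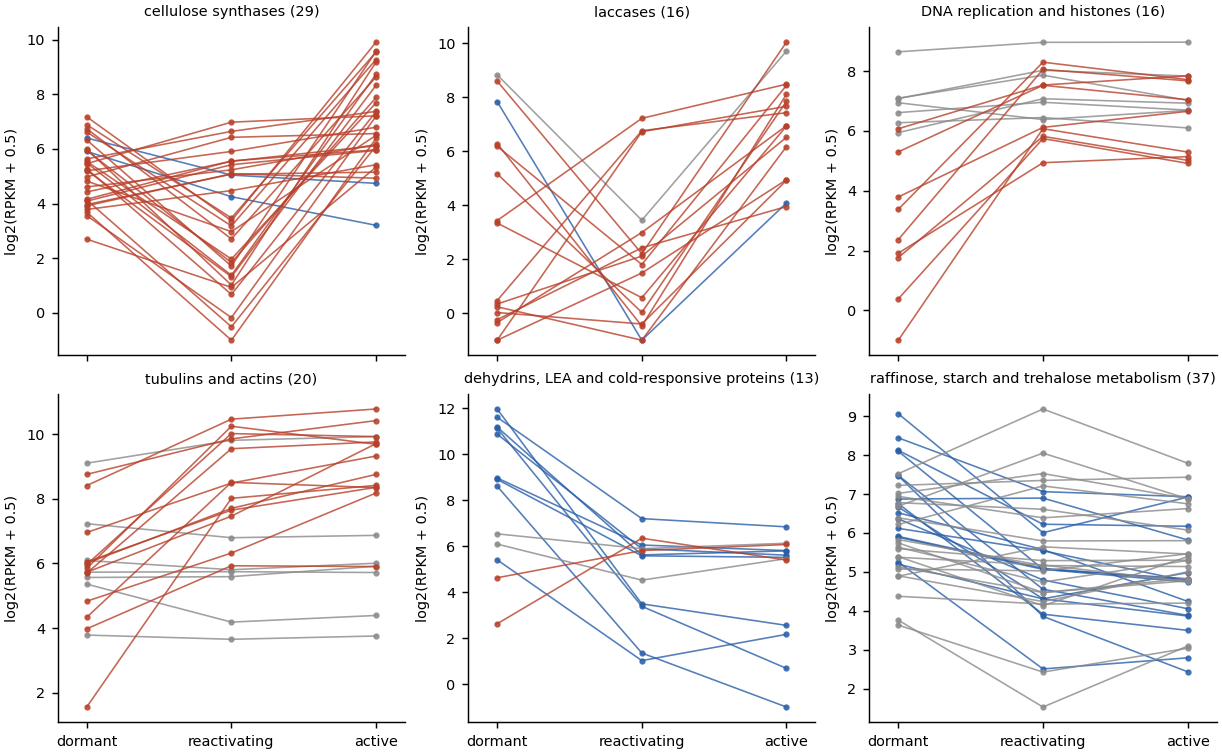
Lines join the log2(RPKM + 0.5) of 1 unigene in the dormant, reactivating and active libraries, for the members of 6 lists with at least 100 reads in the active and dormant libraries together (number in parentheses). Red lines are at least 2-fold higher in active than in dormant cambium, blue lines at least 2-fold lower and grey lines lie between. Many cellulose synthase and laccase lines are lowest at reactivation, and most dehydrin, LEA and cold-responsive lines are high in the dormant library and low in the others.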

How the data were processed

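RNA-seq was made from 1 library per stage, without replicates. The deposited tables give, per the file headers, the count of uniquely mapped reads per unigene, its RPKM and the percent of its length covered. Unigenes with 0 reads are not listed in a library's table. Neither assembler nor mapper is named in the labels or headers. RPKM equals the reads scaled to unigene length and to the total in the header (relative tolerance 1e-06), so the deposited RPKM and count carry the same information. Many unigenes are short, with a median of 323 bases over the series.

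The tables were joined by unigene identifier, with a missing entry as 0 reads, and unigenes with at least 20 reads in the active and dormant libraries together were kept. Ratios are active over dormant RPKM, with exact (Clopper-Pearson) 95% counting intervals, and a floor of 3 reads stands for a library at 0. A ratio of at least 2 either way was counted as higher or lower. With 1 library per group no test was run. GO terms with at least 15 measured unigenes, lists of best-hit names with at least 3 and shared names with at least 5 were described by counts and medians. The ratio and interval computation was tested on simulated data. Python 3.11.15, numpy 2.4.6, pandas 2.3.3, scipy 1.17.1, matplotlib 3.10.9 and R 4.3.3 were used, and edgeR 4.0.16 (TMM) and DESeq2 1.42.0 (size factors) served for alternative scaling only.

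The members and the name lists were chosen with earlier results of these data known, and stray matches were removed from the lists after the matched names were seen. Unigenes were named by a rule: the 12 highest and 12 lowest named ones with at least 200 reads by the interval bound nearest to 1, 1 per name; per list the 2 with the highest RPKM in either library and the 2 with the largest ratio each way at 100 or more reads; the 3 highest and 3 lowest without a name; per GO term shown the 2 with the largest ratio in the direction of its median; and in each library the 5 most abundant named ones by RPKM. Not all of them appear in the text, and 1 result is not reported here. Other unigenes and name families in the text were chosen after their values were seen.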

Additional observations from a re-analysis of the deposited data

How the results depend on the processing

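No paired analysis was possible because each stage has 1 library. Leaving out a library was not possible for the same reason. TMM scaling shifted all log2 ratios by -0.02, and DESeq2 size factors were 1 in both libraries. Of 18 recomputed counts of unigenes, 8 stayed within 1.5 times the reported count. The higher and lower counts (6560 and 5005) became 11191 and 8488 with no minimum of reads, 3486 and 2583 at 100 or more reads, 2843 and 1637 at 4-fold, 3666 and 2306 where the interval lay wholly beyond 2-fold, and 2600 and 1767 among unigenes of at least 500 bases. Fewer unigenes enter or a stricter limit applies in each of these but the first.

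Of 460 recomputed list shares 433 and of 240 GO medians 226 stayed within their limits, and 10 alternatives left under 3 members and gave no value. Among unigenes of at least 500 bases, the share that was higher became 88.9% for DNA replication, 25% for tubulins and actins, 77.8% for cellulose synthases, 100% for cellulose synthase-like proteins, 75% for xylan and mannan enzymes, 4.55% for heat shock proteins, 4.17% for NBS-LRR receptors, 8.33% for cytochrome P450, and 0% for sucrose metabolism and for flavonoid and lignan synthesis. The share that was lower became 22.2% for cellulose synthases, 25% for ethylene and AP2/ERF, 50% for cytochrome P450, and 0% for laccases, xylan and mannan enzymes, pectin enzymes, beta-1,3-glucanases and callose synthases, flavonoid and lignan synthesis, and autophagy and senescence. At 100 or more reads the higher share became 100% for kinesins and for cellulose synthase-like proteins and 0% for terpenoids. With reads summed over unigenes of 1 best hit, the higher share became 100% for cellulose synthase-like proteins and 5.26% for terpenoids, and the lower share 0% for cellulose synthases, xylan and mannan enzymes, and expansins.

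Among unigenes of at least 500 bases, GO medians became 4.73 for lignin metabolic process, 1.28 for external encapsulating structure organization, 0.38 for glucan biosynthetic process, -1.74 for cellular amino acid derivative metabolic process, 0.73 for S-methyltransferase, -0.15 for UDP-glucosyltransferase, 0.07 for chromatin and -0.34 for nuclear lumen. The sign turned for galactosyltransferase activity (0.51 at 100 or more reads, 0.76 at 500 bases, 0.45 with hits summed), for pollen tube growth with hits summed (0.04), for lipid biosynthetic process at 500 bases (1.29) and for oxidoreductase activity on CH-OH donors at 100 or more reads (-0.16). Apart from the fewer unigenes that each of these keeps, the cause was not tested. Depth limits unigenes with 20 to 49 reads most, where the interval lay beyond 2-fold for 12.4%.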
